A study of Mus musculus with 12 samples.

Results

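Mitosis and cytokinesis genes encode the machinery that brings a cell from the end of DNA synthesis through chromosome segregation to 2 daughter cells, and 41 of them were chosen by name from 25511 genes in the authors' table. The 41 are cyclins and kinases, the transcription factor Foxm1, chromosome proteins, the chromosomal passenger complex, kinetochore and spindle checkpoint proteins, ubiquitin factors of mitotic exit, spindle motors, and proteins of the midzone and cleavage furrow. All 41 were found and all passed the filter on low values, so none lay outside it. They were measured in primary cells that the labels call osteoblast-like, freed by collagenase from the calvariae of neonatal C57Bl/6J mice. The mice were wild type (WT) or lacked F2rl1 on both alleles (F2rl1 -/-, here KO), the gene of protease-activated receptor 2 (PAR2). After 48 h of preculture, cells of every group spent 4 days in BRFF-HPC1 medium with 20% serum. The medium was used unconditioned, or after 48 h on MDA-PCa-2b, a line grown from human prostate cancer. Each of the 4 groups had 3 samples. Whether these came from separate animals or cultures is not labelled, and p-values then cover only the spread among them, which may be technical.

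Most of these genes are expressed little in G1 and strongly in G2 and M phase, and their RNA therefore marks dividing cells. In resting cells the DREAM complex holds them down. In G2 the MuvB core of that complex joins B-MYB and FOXM1 and switches them on, largely through a promoter element called the cell cycle homology region (CHR), often beside CCAAT boxes bound by NF-Y. In bone, calvarial osteoblast cultures divide first and lay down mineralised matrix later. Bulk RNA cannot tell fewer dividing cells from less of these RNAs in each cell.

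Libraries held 15023994 to 16956754 fragments. Unconditioned WT libraries 0 and 1 gave equal counts for 90.7% of 13762 genes with at least 10 fragments, less difference than counting noise: their chi-square was 759 with 13761 degrees of freedom, where the next-closest pair within a group had 91577. They were averaged and count as 1 library (n = 2 in this group). In KO, library 0 stood apart from libraries 1 and 2 in both media, with chi-squares of 874580 and 1163620 against 91577 between the other two in unconditioned medium, and of 1290639 and 2041140 against 197894 in conditioned medium. In conditioned WT, library 1 stood apart from libraries 0 and 2 (560739 and 968904 against 263781 between the other two). Results are therefore also given without both libraries numbered 0 of KO, a choice made after seeing the data, and without conditioned WT library 1. The sample titled WT1 Control, in the unconditioned WT group, carries the genotype label of KO and was kept by its title. The table's columns could not be tied to titles, so which library of that group it is was not settled, and it may be 1 of the 2 distinct libraries on which each WT medium effect and each genotype comparison in unconditioned medium rests. F2rl1 had 20 to 46 fragments in unconditioned and 12 to 31 in conditioned libraries. In unconditioned medium the libraries labelled KO had 33, 33 and 46 and those labelled WT 25 and 20, and in conditioned medium KO had 31, 13 and 12 and WT 14, 23 and 14. The deleted part of the gene is not given in the sources used here, so this does not check the labels, and WT and KO mean libraries labelled so. Of early osteoblast markers, Col1a1 had 100542 to 328342 fragments per library and Runx2 1195 to 1411. Alpl had 178 to 1568 and Sp7 32 to 604. Sp7 was lowest in conditioned KO libraries 1 and 2, with 52 and 32. Of markers of later osteoblasts, Spp1 was abundant, with 29518 to 177955 fragments per library. Others were low, with at most 13 fragments of Bglap, 41 of Bglap2, 16 of Ibsp, 5 of Dmp1 and 30 of Phex.

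Promoter sequence is shown first because no expression value entered it. The members themselves were chosen by name with earlier results known. As a group they are known targets of DREAM and MuvB, so a raised share of CHR hexamers follows partly from that choice. The RefSeq promoter table (GRCm38.p6, from 250 bases before to 50 after a start) held 36 windows for 34 of the 41 genes. Ccna2, Foxm1, Aurkb, Incenp, Spc24, Tpx2 and Kif20a had none there. Below are the 100 bases before the start of 6 genes, 5′ to 3′ on the gene's own strand, chosen because they hold both a CHR hexamer (TTTGAA or TTTAAA) and a CCAAT box and at most 26 of their bases lie inside the annotated gene. Capitals mark these motifs on either strand, so TTCAAA and ATTGG are the same motifs read from the other strand. Cdc20 (chr4:118437344-118437443, minus strand) activates the anaphase-promoting complex, Prc1 (chr7:80294376-80294475, plus) bundles midzone microtubules, and Plk1 (chr7:122159335-122159434, plus) is a mitotic kinase. Cdk1 (chr10:69352913-69353012, minus) is the kinase of the mitotic cyclins, Top2a (chr11:99024190-99024289, minus) untangles DNA, and Kif11 (chr19:37376282-37376381, plus) is the motor that separates the spindle poles.
Cdc20: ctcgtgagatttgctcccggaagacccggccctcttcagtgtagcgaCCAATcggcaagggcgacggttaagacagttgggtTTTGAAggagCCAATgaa
Prc1: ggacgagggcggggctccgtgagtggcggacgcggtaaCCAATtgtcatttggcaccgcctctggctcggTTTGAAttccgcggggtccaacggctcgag
Plk1: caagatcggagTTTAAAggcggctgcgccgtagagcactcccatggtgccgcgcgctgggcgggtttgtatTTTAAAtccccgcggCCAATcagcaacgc
Cdk1: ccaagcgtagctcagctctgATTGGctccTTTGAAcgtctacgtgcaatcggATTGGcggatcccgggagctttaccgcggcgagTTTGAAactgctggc
Top2a: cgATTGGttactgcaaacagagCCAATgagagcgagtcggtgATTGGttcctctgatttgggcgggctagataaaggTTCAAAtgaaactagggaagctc
Kif11: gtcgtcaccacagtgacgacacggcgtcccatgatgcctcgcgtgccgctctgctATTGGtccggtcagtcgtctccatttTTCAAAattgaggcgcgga

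A CHR hexamer (TTTGAA or TTTAAA, both strands, the second being its own reverse complement) lay in 30 of 36 member windows (83.3%) and in 27.6% of all 32851 windows. CCAAT lay in 28 of 36 (77.8%) against 37.4%, and both kinds together in 26 of 36 (72.2%) against 10.7%. The motifs TTTGGCG or TTCCCGC, of the kind bound by E2F factors, lay in 1 of 36 (2.8%), the window of Melk, against 6.0% of all. In the 44 windows of 37 DNA replication and G1/S genes the shares were the other way round, with a CHR hexamer in 29.5% and an E2F-type motif in 54.5%. Hexamers sat close to the start: 27 of 36 member windows had one beginning within 50 bases of it, against 8.28% of all windows, a range set after the positions had been seen. In the 200 bases before the start and the first base after it, the share was 44.4% of member windows against 20.1% of all. The windows of Bub1, Mad2l1, Melk, Nek2, Nuf2 and Nusap1 held no CHR hexamer. These are letter matches without a test, and no binding was measured. The bases after the start were found in a transcript of the gene for 26 of 36 windows. The start, and so the positions, are less sure in the others.

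**Figure D1:**
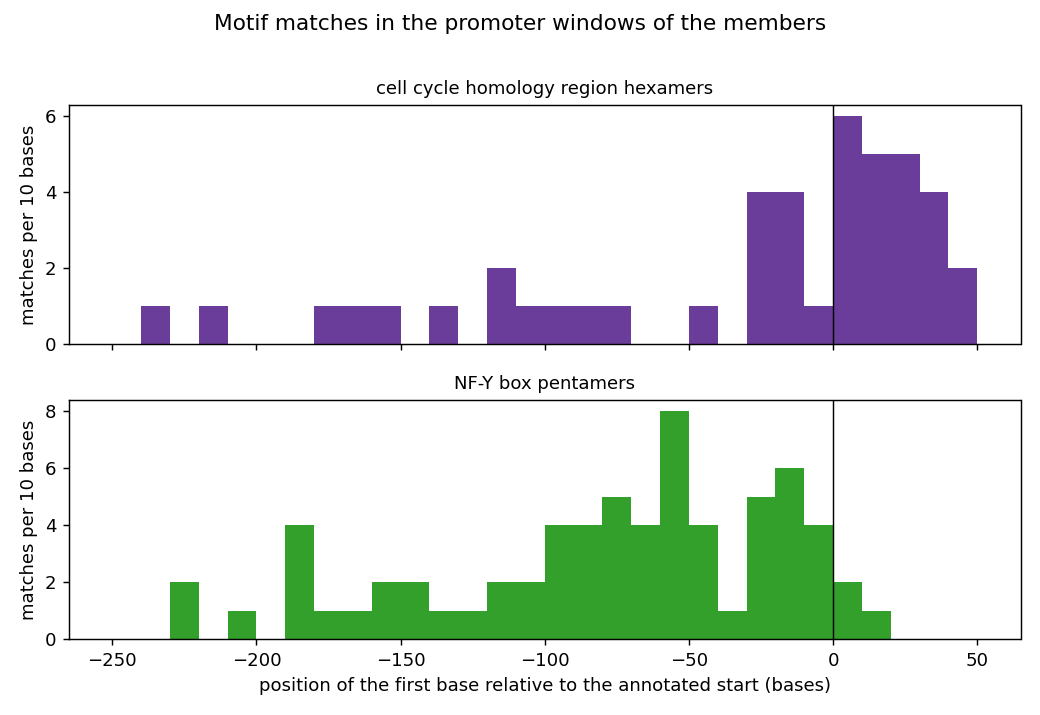
Number of motif matches per 10 bases (y axis) against the position of the first base relative to the annotated start (x axis, bases) in the 36 promoter windows of the members, for CHR hexamers (upper plot, 44 matches, median position -1) and NF-Y boxes (lower plot, 67 matches, median position -67). Most CHR matches lie around the start, and most NF-Y boxes lie before it. The 2 windows of Ect2 overlap, as do the 2 of Prc1, and a match shared by both windows is counted in each.

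All 41 genes were lower in conditioned than in unconditioned medium. With the medium effect averaged over both genotypes, 41 of 41 were called lower (edgeR quasi-likelihood test, adjusted p of 0.00128 to 0.00682), where 10.1% of all 13603 genes tested were called lower. Called means an adjusted p (Benjamini-Hochberg, over all genes tested) under 0.05. The median log2 change was -2.05, from -1.11 for Incenp to -2.56 for Kif2c, against 0.02 over all genes. The 41 genes took 0.121% to 0.232% of all fragments in the unconditioned libraries and 0.0248% to 0.0750% in the conditioned ones. Every one of the 6 conditioned libraries lay below every unconditioned library for each of the 41 genes, a pattern that 8.45% of all genes showed. The 41 calls held under every alternative, also without both KO libraries numbered 0 (median -2.24). Values below are counts scaled to library size (CPM, by the TMM method), with libraries in the order of their numbers in the table.

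**Figure D2:**
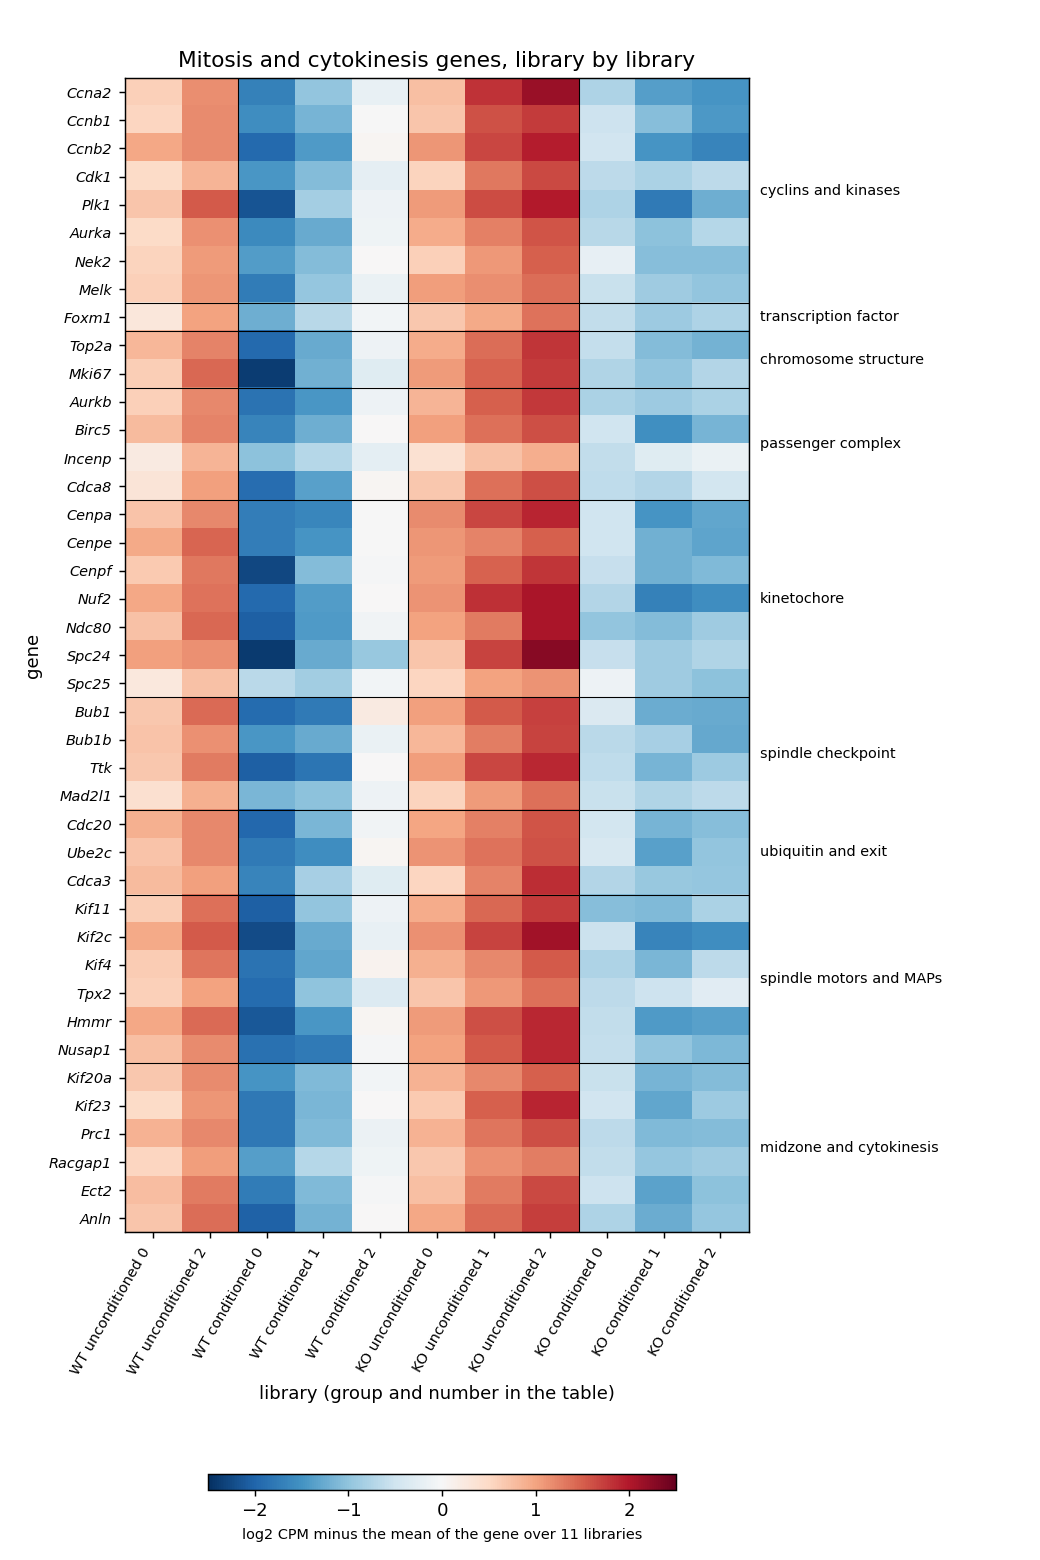
Log2 CPM of each of the 41 genes (rows, by role) in each of the 11 libraries (columns), minus the gene's mean over the libraries. Unconditioned libraries are red and conditioned ones blue to near white or faintly red, and the conditioned WT library 2 is the palest, with a median of -0.08 over the genes.

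The medium effect was tested in each genotype by itself as well. In KO libraries all 41 genes were called lower (8.58% of all genes), with a median log2 change of -2.24, from -1.04 for Incenp to -2.97 for Nuf2, and adjusted p of 0.00718 to 0.0231 (edgeR). The KO count was 11 without conditioned library 1 of KO, 32 without conditioned library 2, 31 without unconditioned library 1 and 27 without unconditioned library 2, and 41 without both libraries numbered 0 (median -2.63). In WT libraries 4 of 41 were called lower (0.551% of all genes): Spc24, Prc1, Tpx2 and Bub1b. The median there was -1.83, from -1.004 for Spc25 to -2.49 for Spc24, and the adjusted p ran from 0.0320 to 0.153. The WT count moved with the data and the tool: it was 40 without conditioned WT library 2 and 0 without unconditioned WT library 0 or 2, conditioned WT library 0 or 1, unconditioned KO library 1 or conditioned KO library 1. Without an unconditioned WT library that arm is 1 library, assumed to vary like the other groups. The count was 1 without library 2 of either KO group, 7 and 27 without unconditioned and conditioned KO library 0, and 32 without both. DESeq2 called 40. Without conditioned WT library 1 the WT median was -1.66, and all 41 genes were still called in KO and by the averaged effect. The count over all genes moved too when 1 library was left out, reaching 916 in WT and running from 319 to 6094 in KO. The shifts in member counts are therefore not shown to be particular to these genes. Totals over all genes are given in the closing section. Every member stayed below 0 in both genotypes under every alternative.

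**Figure D3:**
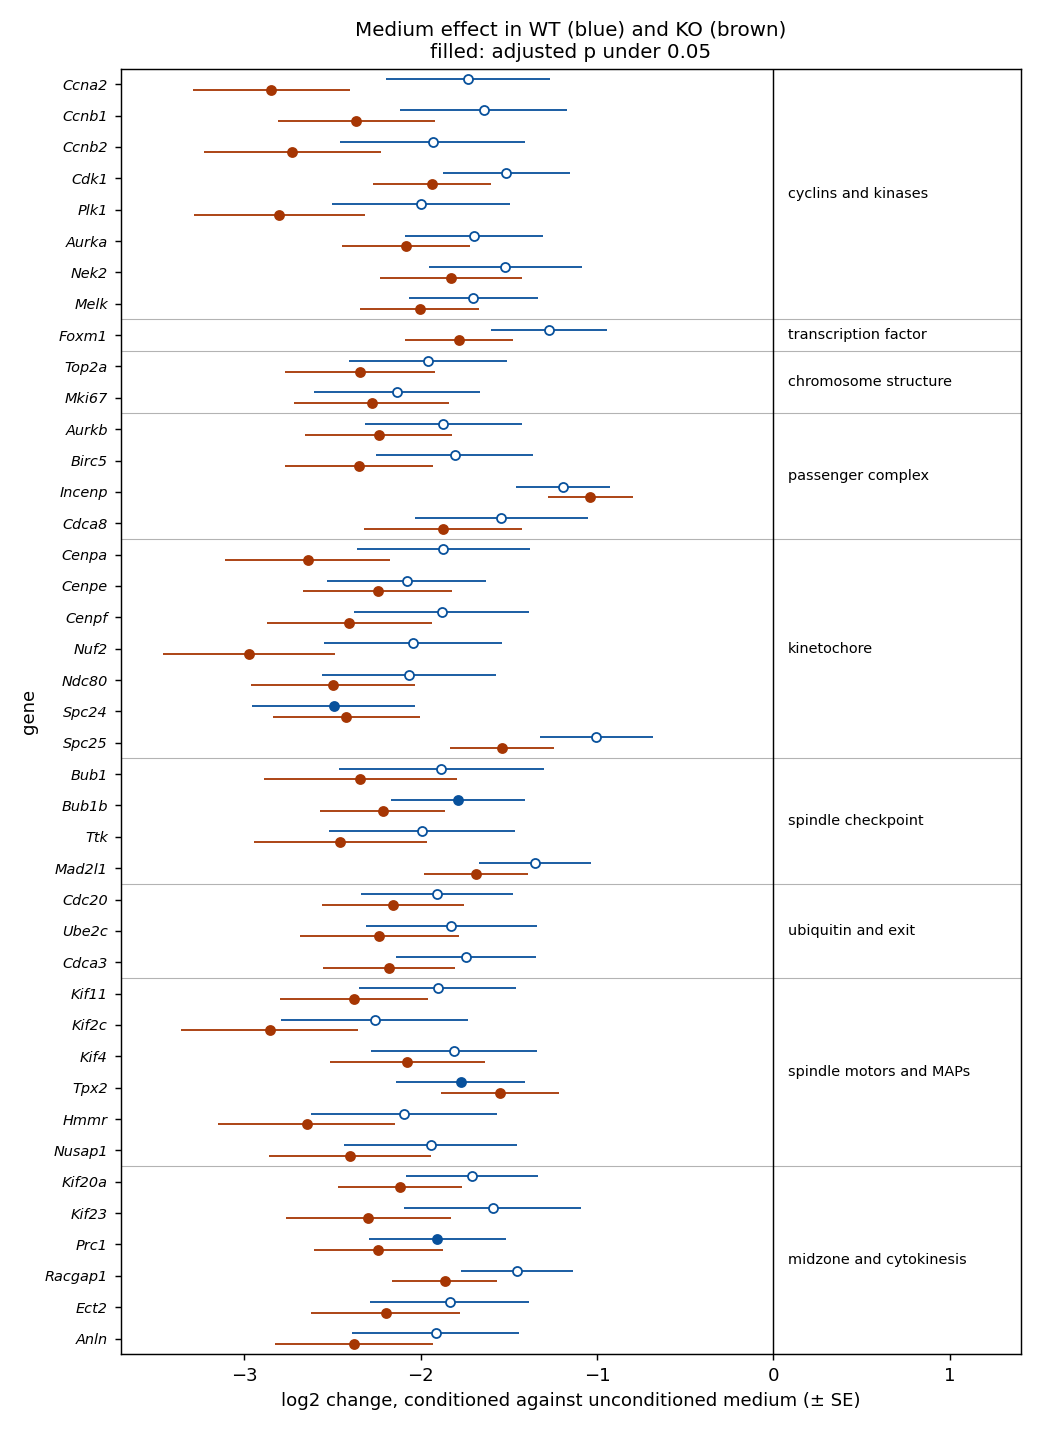
Log2 change between conditioned and unconditioned medium (x axis) for each gene (rows, by role), in WT (blue) and KO (brown), with bars of 1 SE. Filled points have an adjusted p under 0.05. All points lie left of -1, and Incenp and Spc25 lie nearest to 0.

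The cyclins and kinases drive entry into mitosis, and all 8 were lower in conditioned medium by the averaged test and in KO. Cdk1 was counted at 48.5 and 62.7 CPM in unconditioned and 12.6, 16.3 and 29.4 in conditioned libraries of WT, and at 50.8, 86.6 and 108 against 22.1, 19.95 and 22.1 in KO. The 3 conditioned KO libraries were close together and well under the unconditioned ones. The log2 change of Cdk1 was -1.51 in WT (SE 0.36, adjusted p = 0.0643) and -1.94 in KO (SE 0.33, adjusted p = 0.00879). In WT, Ccna2 stood at 38.4 and 57.2 CPM in unconditioned and 7.91, 12.8 and 22.5 in conditioned medium, and in KO at 42.6, 88.7 and 113 and at 14.9, 9.85 and 9.22. Ccna2, cyclin A2, which partners CDK2 and CDK1 in S and G2 phase, had fitted changes farthest apart between the genotypes, a gap that the interaction test did not call, with -1.73 in WT (SE 0.46, adjusted p = 0.0924) and -2.85 in KO (SE 0.45, adjusted p = 0.00718). For Plk1 the unconditioned libraries gave 18.3 and 32.4 CPM in WT and 23.6, 34.8 and 44.3 in KO, and the conditioned ones 2.51, 6.28 and 10.3 in WT and 6.59, 3.28 and 4.85 in KO. The WT library 2 stood above the other conditioned libraries and still under every unconditioned one for this kinase of spindle assembly and mitotic exit, whose change was -1.99 (SE 0.50) in WT and -2.80 (SE 0.48) in KO. Ccnb1, cyclin B1 of the mitosis-promoting kinase, ran from 11.2 to 25.9 CPM in unconditioned and 2.64 to 7.74 in conditioned libraries. Ccnb2, a second B-type cyclin, ran from 23.3 to 46.1 CPM in unconditioned and 3.09 to 12.2 in conditioned libraries, with changes of -1.93 (SE 0.53) in WT and -2.73 (SE 0.50) in KO. Aurka, the Aurora kinase of centrosome and spindle pole, ran from 21.4 to 45.9 CPM in unconditioned and 5.08 to 14.2 in conditioned libraries. Its relatives in this role were alike in direction: Nek2, the kinase that separates centrosomes, ran from 14.6 to 27.9 CPM in unconditioned and 3.73 to 9.92 in conditioned libraries, and Melk, a kinase expressed in proliferating cells, ran from 12.4 to 21.7 CPM in unconditioned and 2.44 to 7.28 in conditioned libraries.

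Foxm1, the transcription factor that switches on G2 and M genes, changed less than 37 of the other 40 genes. Foxm1 was counted at 23.3 and 38.2 CPM in unconditioned and 8.17, 11.7 and 18.3 in conditioned libraries of WT, and at 30.6, 36.9 and 48.97 against 12.4, 10.2 and 11.2 in KO. No conditioned library reached the lowest unconditioned value. Its log2 change was -1.27 in WT (SE 0.33, adjusted p = 0.0826) and -1.78 in KO (SE 0.30, adjusted p = 0.00875).

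Chromosome proteins were the most counted genes of the set. In WT, Top2a stood at 148 and 197 CPM in unconditioned and 21.6, 34.96 and 76.9 in conditioned medium, and in KO at 158, 221 and 289 and at 55.1, 39.5 and 36.8. Top2a is topoisomerase II alpha, which decatenates sister chromatids, and its change was -1.96 in WT (SE 0.45, adjusted p = 0.0596) and -2.34 in KO (SE 0.42, adjusted p = 0.0101). For Mki67 the unconditioned libraries gave 90.6 and 159 CPM in WT and 123, 165 and 200.1 in KO, and the conditioned ones 11.4, 25.9 and 48.1 in WT and 35.1, 29.9 and 35.8 in KO. Mki67, the Ki-67 antigen that coats mitotic chromosomes and is widely used to mark dividing cells, changed by -2.13 (SE 0.47) in WT and -2.28 (SE 0.44) in KO. For Mki67, conditioned WT library 0 was lowest and conditioned WT library 2 highest of the 6 conditioned libraries.

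The chromosomal passenger complex joins the kinase Aurora B (Aurkb) with survivin (Birc5), borealin (Cdca8) and the scaffold Incenp. Its scaffold had the smallest averaged change of the 41 genes. Incenp was counted at 32.3 and 49.5 CPM in unconditioned and 13.5, 16.7 and 23.4 in conditioned libraries of WT, and at 35.9, 45.7 and 51.8 against 17.98, 22.3 and 24.6 in KO. Every conditioned library lay under every unconditioned one, and the change was -1.19 in WT (SE 0.27, adjusted p = 0.0561) and -1.04 in KO (SE 0.24, adjusted p = 0.0209). Aurkb ran from 14.8 to 33.2 CPM in unconditioned and 2.70 to 8.997 in conditioned libraries, with changes of -1.87 (SE 0.45) in WT and -2.24 (SE 0.41) in KO. Birc5 ran from 18.4 to 32.6 CPM in unconditioned and 3.41 to 10.7 in conditioned libraries, and Cdca8 ran from 13.5 to 32.9 CPM in unconditioned and 2.89 to 11.2 in conditioned libraries. The Incenp count divided by the median count of the other three was 1.58 to 2.20 in the unconditioned libraries and 2.19 to 4.67 in the conditioned ones, a comparison made after the values had been seen and given without a test.

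Kinetochore genes connect chromosomes to microtubules, and their changes ranged widely, with the largest of the 41 in WT (Spc24) and in KO (Nuf2) and, in WT, also the smallest (Spc25). In WT, Cenpe stood at 41.4 and 58.6 CPM in unconditioned and 6.50, 7.69 and 21.3 in conditioned medium, and in KO at 46.01, 50.7 and 60.2 and at 15.2, 9.31 and 8.62. Cenpe is the motor that brings chromosomes to the spindle equator, and it changed by -2.08 (SE 0.45) in WT and -2.24 (SE 0.42) in KO. For Nuf2 the unconditioned libraries gave 19.7 and 26.1 CPM in WT and 22.1, 35.9 and 41.6 in KO, and the conditioned ones 2.64, 3.85 and 10.2 in WT and 6.10, 3.16 and 3.45 in KO. Nuf2 pairs with Ndc80 in the outer NDC80 complex and had the largest change in KO, -2.04 in WT (SE 0.51, adjusted p = 0.0742) and -2.97 in KO (SE 0.49, adjusted p = 0.00795). Spc24 was counted at 7.55 and 8.18 CPM in unconditioned and 0.708, 1.55 and 1.92 in conditioned libraries of WT, and at 6.01, 11.98 and 17.99 against 2.49, 2.01 and 2.21 in KO. Spc24, a subunit of the same complex (XLOC_023642, chr9:21755442-21760303, GRCm38), was the least counted member, with 11 fragments in conditioned WT library 0, and the largest change in WT, -2.49 in WT (SE 0.46, adjusted p = 0.032) and -2.42 in KO (SE 0.42, adjusted p = 0.00879). In WT, Spc25 stood at 22.3 and 30.8 CPM in unconditioned and 11.7, 10.2 and 17.7 in conditioned medium, and in KO at 26.8, 37.3 and 40.6 and at 16.9, 10.04 and 9.11. Its partner Spc25 changed least in WT, by -1.004 in WT (SE 0.32, adjusted p = 0.153) and -1.54 in KO (SE 0.30, adjusted p = 0.0114). Ndc80 ran from 10.5 to 25.9 CPM in unconditioned and 1.54 to 5.95 in conditioned libraries. Of the centromere proteins, Cenpa, the histone variant that marks centromeres, ran from 18.7 to 42.1 CPM in unconditioned and 3.41 to 11.2 in conditioned libraries, and Cenpf ran from 27.3 to 59.8 CPM in unconditioned and 3.60 to 17.002 in conditioned libraries. The Spc25 count divided by the median of Nuf2, Ndc80 and Spc24 was 1.57 to 2.42 in unconditioned and 2.68 to 7.58 in conditioned libraries, also chosen after the values had been seen.

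Spindle checkpoint genes hold back anaphase until every kinetochore is attached. For Bub1b the unconditioned libraries gave 29.3 and 39.9 CPM in WT and 31.8, 43.7 and 58.1 in KO, and the conditioned ones 6.56, 7.49 and 16.01 in WT and 11.3, 10.04 and 7.44 in KO. Bub1b (BUBR1) binds and restrains CDC20, and its change was -1.79 in WT (SE 0.38, adjusted p = 0.0485) and -2.22 in KO (SE 0.36, adjusted p = 0.0075). Bub1, the kinase that recruits checkpoint proteins, ran from 19.05 to 39.004 CPM in unconditioned and 3.15 to 14.1 in conditioned libraries, and Ttk (MPS1), the kinase that starts the signal, ran from 8.41 to 19.5 CPM in unconditioned and 1.29 to 5.29 in conditioned libraries. Mad2l1, the checkpoint effector MAD2, had one of the smaller changes. It ran from 21.1 to 41.2 CPM in unconditioned and 7.20 to 14.7 in conditioned libraries, with -1.35 (SE 0.32) in WT and -1.69 (SE 0.30) in KO.

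Ubiquitin genes drive the exit from mitosis. Cdc20 was counted at 35.01 and 43.5 CPM in unconditioned and 4.89, 8.64 and 17.9 in conditioned libraries of WT, and at 37.8, 45.3 and 56.7 against 13.9, 8.46 and 9.05 in KO. The change of Cdc20 was -1.91 (SE 0.43) in WT and -2.16 (SE 0.40) in KO. Ube2c, the conjugating enzyme that works with the anaphase-promoting complex, ran from 24.5 to 45.1 CPM in unconditioned and 4.37 to 15.5 in conditioned libraries. Per length (mean FPKM, fragments scaled to gene length and depth, over the 11 libraries), Ube2c was the highest member, at 22.9, and Cenpf the lowest, at 1.94. Cdca3, a substrate adaptor of mitotic entry, ran from 16.7 to 41.6 CPM in unconditioned and 3.67 to 9.39 in conditioned libraries.

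Spindle motors and microtubule proteins build the bipolar spindle. In WT, Tpx2 stood at 64.4 and 84.8 CPM in unconditioned and 11.1, 21.1 and 33.3 in conditioned medium, and in KO at 68.7, 89.7 and 109.8 and at 26.8, 29.6 and 35.03. Tpx2, which activates Aurora A, had a smaller fitted change in KO than in WT, a gap that the interaction test did not call. Its changes were -1.77 in WT (SE 0.36, adjusted p = 0.0458) and -1.55 in KO (SE 0.33, adjusted p = 0.0167). For Kif2c the unconditioned libraries gave 17.1 and 25.5 CPM in WT and 19.5, 28.6 and 37.99 in KO, and the conditioned ones 1.87, 3.71 and 7.74 in WT and 6.10, 2.80 and 3.02 in KO. Kif2c (MCAK), a kinesin that takes microtubules apart, had the largest change averaged over genotypes, -2.56, with -2.26 (SE 0.53) in WT and -2.85 (SE 0.50) in KO. Kif11, whose promoter is printed above, ran from 25.6 to 56.05 CPM in unconditioned and 4.05 to 15.2 in conditioned libraries. Kif4, a chromosome-bound kinesin, ran from 18.8 to 35.03 CPM in unconditioned and 3.34 to 12.8 in conditioned libraries. Hmmr, a hyaluronan receptor that also acts at spindle poles, ran from 43.9 to 83.5 CPM in unconditioned and 5.15 to 23.2 in conditioned libraries, with -2.09 (SE 0.53) in WT and -2.64 (SE 0.50) in KO, and Nusap1, a microtubule bundler, ran from 18.3 to 40.1 CPM in unconditioned and 2.96 to 10.6 in conditioned libraries.

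Midzone and cytokinesis genes split the cell after anaphase. Kif20a was counted at 83.3 and 118 CPM in unconditioned and 18.8, 24.1 and 49.6 in conditioned libraries of WT, and at 94.9, 119 and 145 against 35.2, 23.1 and 24.6 in KO. Kif20a carries the passenger complex to the midzone, and it changed by -1.71 (SE 0.37) in WT and -2.12 (SE 0.35) in KO. In WT, Prc1 stood at 50.6 and 63.3 CPM in unconditioned and 7.98, 12.8 and 24.8 in conditioned medium, and in KO at 50.3, 69.2 and 84.7 and at 17.4, 12.8 and 12.99. Prc1, which bundles midzone microtubules, was among the 4 called in WT, with changes of -1.90 in WT (SE 0.39, adjusted p = 0.0458) and -2.24 in KO (SE 0.37, adjusted p = 0.0079). Kif23 and Racgap1 form the centralspindlin complex: Kif23 ran from 13.1 to 35.5 CPM in unconditioned and 2.77 to 9.53 in conditioned libraries, and Racgap1 ran from 37.5 to 62.2 CPM in unconditioned and 9.97 to 23.9 in conditioned libraries. Ect2, which activates RhoA at the furrow, ran from 26.9 to 50.4 CPM in unconditioned and 4.76 to 15.8 in conditioned libraries, and Anln (anillin), the furrow scaffold, ran from 58.3 to 120.0 CPM in unconditioned and 8.88 to 36.1 in conditioned libraries.

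**Figure D4:**
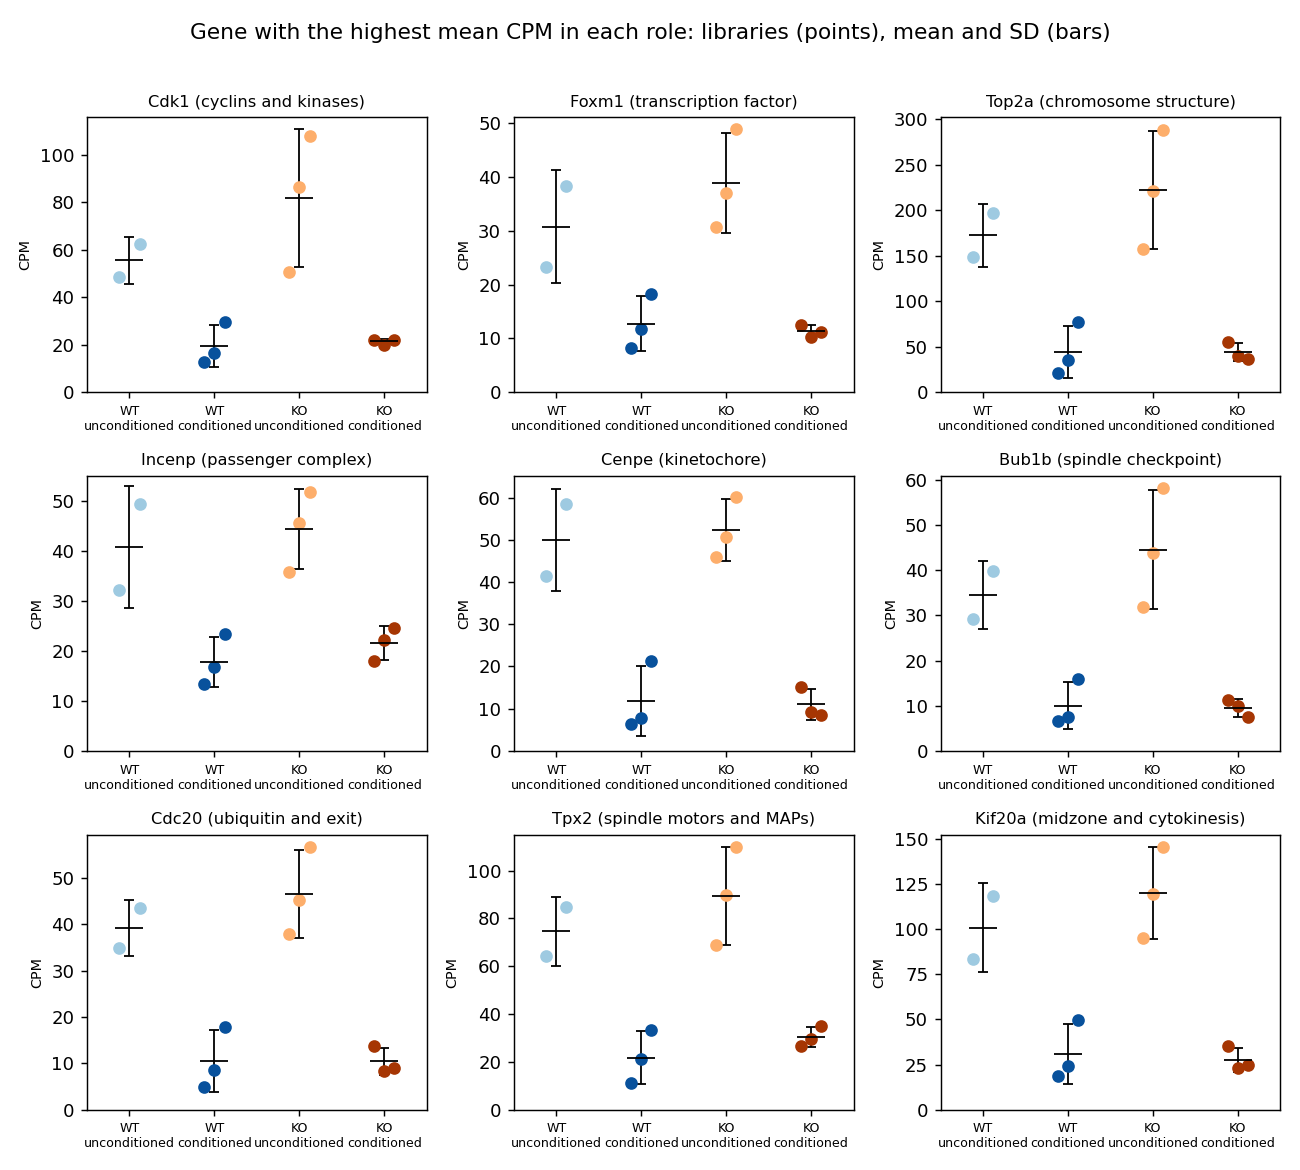
CPM (y axis) of the gene with the highest mean CPM in each of the 9 roles, in the 4 groups (x axis). Points are libraries, and bars are the mean and SD (n = 2 in unconditioned WT, 3 in the others). In all 9 plots each conditioned library lies below each unconditioned one.

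**Figure D5:**
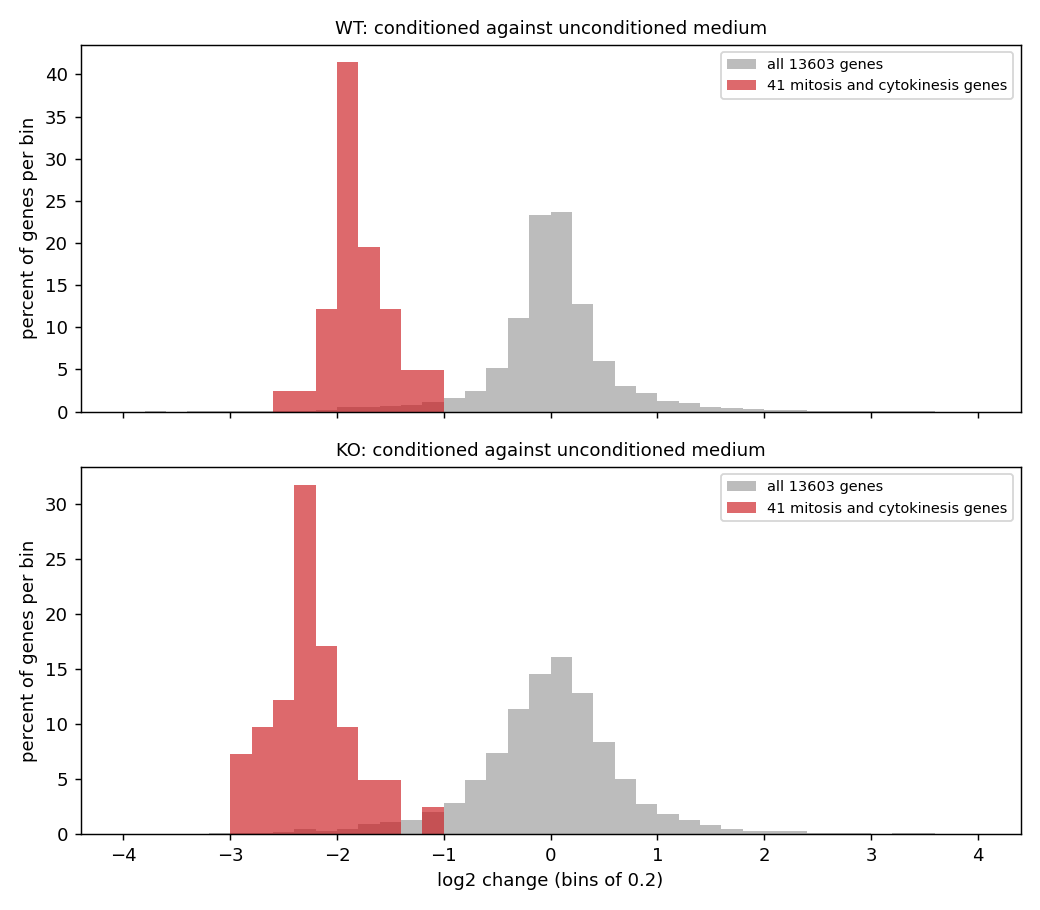
Percent of genes per bin of 0.2 (y axis) against the log2 change between conditioned and unconditioned medium (x axis), for all 13603 genes (grey) and the 41 mitosis and cytokinesis genes (red), in WT (upper plot) and KO (lower plot). The red bars lie at or below -1, and the grey bars centre near 0.

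The 2 genotypes were then compared in each medium. In unconditioned medium 0 of 41 genes were called (edgeR), and 0 had an unadjusted p under 0.05, against 0.00735% of all genes called. All 41 log2 differences between KO and WT were above 0, with a median of 0.38, from 0.07 for Cenpe to 0.77 for Ccna2. Without WT library 0 the median was 0.15 with 4 genes below 0, without WT library 2 it was 0.67, and without KO library 2 it was 0.18 with 3 below 0. No gene's groups separated, which 9.12% of all genes did with KO higher and 8.01% with KO lower. KO library 2 was above both WT libraries for 41 of 41 genes, and KO library 0 was below WT library 2 for 41 of 41. These orders were not counted over all genes. In conditioned medium 0 of 41 were called and 0 had an unadjusted p under 0.05 (0.0% of all genes called), with a median of -0.08 and 29 below 0 (-0.23 without conditioned WT library 1). Spc24 was the only one of the 41 whose KO libraries all lay above its WT libraries (0.68, adjusted p = 0.425, edgeR), as 4.65% of all genes did. Among the conditioned WT libraries, library 2 was highest for 41 of 41 genes and library 0 lowest for 40. This order was not counted over all genes either. Without conditioned WT library 2 the median difference was 0.57, and still 0 members were called. Without both KO libraries numbered 0, the medians were 0.56 in unconditioned and -0.24 in conditioned medium, with 0 members called in each. That fit did call many genes outside the set in both media, as counted in the closing section.

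The interaction, the medium effect in KO minus that in WT, was tested directly. It called 0 of 41 genes (0.0% of all genes), with 0 at an unadjusted p under 0.05 by edgeR. The median was -0.43, from -1.12 for Ccna2 (SE 0.64, adjusted p = 0.819) to 0.22 for Tpx2, and 38 were below 0. Without conditioned WT library 2 the median was 0.19, and without both KO libraries numbered 0 it was -0.75, with 0 members called in each. The latter fit called many genes outside the set for the interaction, as counted in the closing section. The 41 calls in KO and 4 in WT are therefore not shown to differ. Other tools gave 0 interaction calls among the members too.

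Genes of 9 related lists, chosen with earlier results known, were counted the same way with the effect averaged over genotypes, where 10.1% of all genes were called lower and 10.4% higher. Called lower were 13 of 18 other mitotic kinases, phosphatases and inhibitors (median -1.02), 23 of 31 other kinetochore and centromere genes (-0.96), 19 of 26 other spindle and centrosome genes (-1.43) and 9 of 18 other cytokinesis genes (-0.38). Condensin and cohesin, which shape and hold chromosomes, had 15 of 20 lower (-0.65). Among their most strongly called genes were Zwilch, of the kinetochore RZZ complex (-1.61, SE 0.20), Casc5, the kinetochore scaffold KNL1 (-2.23, SE 0.28), Kif14, a kinesin of cytokinesis (-2.34, SE 0.31), and Ncapd2, a condensin subunit (-1.52, SE 0.19). Plk4, which duplicates centrioles, was at -1.67 (SE 0.24), and Shcbp1, a midbody protein, at -2.29 (SE 0.33).

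DNA replication and G1/S genes, the part of the cycle before mitosis, were called lower in 27 of 45 (median -0.66), all but 1 being below 0. Rrm1, a subunit of ribonucleotide reductase, had 149 ± 27.7 CPM (SD, n = 2) in unconditioned and 80.0 ± 11.5 (n = 3) in conditioned WT, and was called in both genotypes (-0.89, SE 0.15, in WT and -0.75, SE 0.14, in KO). The cyclin Ccne1 and the ligase Lig1 changed by -0.92 (SE 0.14) and -1.08 (SE 0.16). The anaphase-promoting complex had 3 of 15 lower (-0.10), and regulators of DREAM and MuvB 8 lower and 1 higher of 16 (-0.43). Among the latter, E2f7, a repressor of E2F targets, was at -1.83 (SE 0.38). D cyclins, inhibitors and the p53 axis had 2 lower and 1 higher of 19 (0.05): the inhibitors Cdkn2d (-0.95, SE 0.15) and Cdkn2c (-0.59, SE 0.14) were lower and Cdk4, the kinase of D cyclins, higher (0.36, SE 0.09).

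Some markers of other cell types moved with the medium. Osteoclast markers summed to 114 to 182 CPM in unconditioned and 251.1 to 434 in conditioned libraries. Most of each sum was Ctsk, at 96.4 to 157 and 227 to 406 CPM. Of 5 tested, 2 were called higher, Ctsk (1.39, SE 0.19) and Atp6v0d2 (2.21, SE 0.20). Acp5 had 15 to 30 fragments in unconditioned and 20 to 39 in conditioned libraries, and Itgb3 202 to 266 and 267 to 382. Oscar had 3 to 9 and 4 to 8, and Mmp9 5 to 17 and 1 to 73. Calcr reached at most 3 fragments and Dcstamp had 0. Macrophage markers summed to 52.5 to 99.0 against 55.0 to 152 CPM (2 of 12 higher). Most of each macrophage sum was Lyz2, with 470 to 763 against 671 to 1455 fragments. Some others overlapped between media: Itgam had 40 to 87 against 18 to 89 fragments. Cd14 had 48 to 79 against 31 to 86, and C1qa 15 to 80 against 2 to 57. Endothelial markers summed to 4.16 to 8.25 against 8.96 to 16.1 CPM (3 of 4 higher), with Cldn5 at 0. Skeletal muscle markers summed to 37.2 to 251.3 against 20.7 to 173 (0 of 10 called), highest in unconditioned WT library 0 and conditioned WT library 1 of those media, and keratinocyte markers to 3.58 to 37.5 against 2.43 to 16.2 (1 of 5 lower). Of 11 osteoblast markers 2 were lower, Alpl (-1.43, SE 0.34) and Pth1r, and 1 higher, Bglap2. The part of these shifts in the change of the mitotic genes was not tested.

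Fragments of start-site groups, which are estimates in the authors' deposited table, were looked at as well. Of the 41 genes, 36 had a single start-site group. Cdk1 had 2: the larger had 696 and 862 fragments in unconditioned WT libraries 0 and 2, 132, 172 and 430 in conditioned WT, 696, 1131 and 1532 in unconditioned KO and 312, 133 and 174 in conditioned KO, while the smaller had 42 and 35, then 64, 70 and 15, then 56, 98 and 74, and in conditioned KO 43, 195 and 236. The smaller group was higher than the larger one in conditioned KO libraries 1 and 2 only. A second start of Kif20a had 69 and 388 fragments in unconditioned WT libraries 0 and 2, 248, 245 and 561 in unconditioned KO, 0 in each conditioned WT library and 10, 0 and 0 in conditioned KO. The larger group of Cdca3 had 288 and 337 fragments in unconditioned WT libraries 0 and 2, 23, 64 and 0 in conditioned WT, 247, 338 and 472 in unconditioned KO and 112, 98 and 85 in conditioned KO, and the smaller 18 and 0, then 34, 32 and 142, then 0, 48 and 145, and in conditioned KO 0, 0 and 25. The authors' deposited table of promoter use called none of these 3 genes between media within a genotype, with q-values of 0.807 for Cdk1, 0.493 for Kif20a and 0.199 for Cdca3 in WT and of 0.430, 0.104 and 0.971 in KO. It did call Kif20a between conditioned WT and unconditioned KO (q = 0.0133), groups that differ in both genotype and medium. The authors' deposited table of start-site groups called 37 of 44 tested member groups significant between media in WT and 41 of 44 in KO, against 8.76% and 16.8% of all groups. It called 11 of 44 between genotypes in unconditioned medium (2.21% of all groups) and 0 of 43 in conditioned medium (7.20%). The authors' tables count all 3 unconditioned WT libraries, the near-identical pair included. Exons of 8 members share bases with a coding gene on the other strand: Ccna2, Cdca8, Cdc20, Ube2c, Kif4, Nusap1, Kif20a and Prc1. The library kit does not mark the strand, so reads from such stretches cannot be told apart.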

How the data were processed

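RNA was sequenced in 12 mouse samples. The submitters' processing notes name GRCm38, TopHat2 2.0.9, Cuffdiff 2.1.1 and CASAVA 1.8.2. The deposited gene table holds, per the file headers, raw fragments, which are estimated counts (expected counts), and FPKM values that the authors scaled between libraries. The authors' test tables hold p-values and q-values, and other columns, such as transcript length, are per the file headers. Genes with no symbol (1714, with 2.69% to 3.10% of fragments) were left out. After rounding, 13603 genes kept by filterByExpr entered 1 fit of the 4 groups, by the robust quasi-likelihood test of edgeR 4.0.16 (R 4.3.3) with TMM scaling, on 7 residual degrees of freedom. Each SE was taken as log2 change over root F. FPKM served for levels per length and 2 alternative fits (pseudocounts of 1 and 0.1). Alternatives were DESeq2 1.42.0, limma 3.58.1, other scalings, no filter and leaving out libraries. Members and lists were chosen with earlier results of these data known. The rule for named genes asked for values in every library for each called gene. As all 41 were called, 17 have them in the text and the others their range.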

Additional observations from a re-analysis of the deposited data

How the results depend on the processing

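No paired analysis was possible because table columns count libraries from 0 and titles from 1, with nothing in the labels or headers to link the numberings, so the planned replicate block was not run. By the effect averaged over genotypes the 41 genes were called lower under every alternative, while no alternative called a member between genotypes or for the interaction. Over all genes, the reported test called 1 gene between genotypes in unconditioned medium and 0 in conditioned medium, 242 for the medium in WT, 2484 in KO, 2787 averaged and 0 for the interaction. DESeq2 called 2 between genotypes in conditioned medium and, in WT, 886 genes and 40 members. Scaling by library size, limma-voom and limma on log2(FPKM + 1) or log2(FPKM + 0.1) called 0 between genotypes in unconditioned medium, and 2, 18, 8 and 6 members in WT. Keeping both near-identical libraries gave 923 genes and 36 members in WT. Without both KO libraries numbered 0 (chosen after seeing the data), 659 genes were called between genotypes in unconditioned and 5765 in conditioned medium, 1589 and 32 members in WT, 6822 in KO, 2605 for the interaction and 6590 averaged. Leaving out 1 library gave 0 to 2 and 0 to 4507 genes between genotypes in unconditioned and conditioned medium, 0 to 916 genes and 0 to 40 members in WT, 319 to 6094 genes and 11 to 41 members in KO, 1215 to 5652 genes averaged, and 0 to 1419 for the interaction. The 4507, 916, 6094, 5652 and 1419 all came without conditioned KO library 0. The members' medians over these fits ranged from -2.48 to -1.53 in WT, 0.15 to 0.67 between genotypes in unconditioned medium, -0.38 to 0.57 between genotypes in conditioned medium and -0.71 to 0.19 for the interaction, where the -2.48, 0.57 and 0.19 came without conditioned WT library 2. The interaction of Tpx2 ranged from -0.085 without conditioned WT library 0 to 0.67 without conditioned WT library 2, against 0.22. The causes were not tested. Library-size scaling moved the median of all genes to 0.21 for the medium in KO and 0.15 averaged, with members at -2.07 and -1.92, and the lower share of all calls from 47.0% to 24.3% in KO and from 49.2% to 29.6% averaged. Depth was lowest for Spc24, the least counted member.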
